A study of Mus musculus with 16 samples.

Results

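The microRNAs miR-451, miR-144 and miR-486, which mark red blood cells, were followed through dorsal skin of mice with and without the nuclear receptor PPARβ/δ, with and without chronic ultraviolet B. They were chosen by name, as the entries mmu-miR-451, mmu-miR-144 and mmu-miR-486 of the array, and are 3 of the 577 miRNAs measured. Because circulating blood is part of any piece of whole skin, their levels were read as a gauge of the blood left in each sample. MiR-486 is less suited to this, being abundant in skeletal muscle too. By correlation between arrays the miRNA most like it here was miR-378, followed by miR-133a and miR-133b of skeletal muscle. The relation with miR-133a did not pass adjustment after quantile normalization (exact permutation, adjusted p = 0.352). MiR-451 and miR-486 were detected on all 16 arrays, whereas miR-144 was detected on 3.

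The mice were hairless albino females on one mixed background (SKH1-C57/Bl6-SV129), and both genotypes were littermates. WT mice carried Ppard (Ppard+/+), and KO mice were null for it (Ppard-/-). The no UV groups were sham-manipulated and age-matched to the UV groups, which received UVB at 70 mJ/cm2 per exposure for 12 weeks and gave skin free of lesions. The 4 groups (WT and KO without UV, WT and KO with UV) held 4 arrays each, 1 skin sample per array, from 4 animals a group per the methods. The Ppard transcript is not measured by a miRNA array, so these files hold no check of the genotype.

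Red cell precursors switch on a short transcript that holds both miR-144 and miR-451, under the transcription factor GATA1, and both miRNAs accumulate as the cells mature. MiR-451 is unusual in that its hairpin is too short for Dicer and is cut by Argonaute 2 instead, and the mature red cell, which has no nucleus, still carries it in large amounts. MiR-486 is made from an intron of Ank1, the gene of ankyrin 1, an anchor of the red cell membrane skeleton. It is not restricted to blood, since a muscle form of Ank1 is transcribed in skeletal muscle and miR-486 is abundant there too.

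The mature sequences of the clustered pair are shown because they tell the 2 miRNAs apart on an array that reads short sequences. They were taken from RefSeq (GRCm38.p6), 5′ to 3′, and the capitals mark the seed, bases 2 to 8, which selects target mRNAs.
miR-451 (miR-451a in RefSeq): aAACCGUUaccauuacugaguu
miR-144 (miR-144-3p in RefSeq): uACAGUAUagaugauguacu
The 2 seeds differ, and 0 other sequences among the 1679 mature mouse sequences of that table carry either seed. MiR-486 is named only.

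The scanner files place miR-451 at chromosome 11, 77886688 to 77886709, and miR-144 at chromosome 11, 77886549 to 77886568 (mm9), with 119 bases between them. The part of miR-486 that its probes read lies at chromosome 8, 24253067 to 24253080 (mm9). In the RefSeq gene table (GRCm38.p6) Mir144 and Mir451a neighbour each other outside any protein-coding gene, with Eral1 and Flot2 nearest, and Mir486 overlaps Ank1. No other strand of these 3 hairpins was on the array. Each miRNA had 2 probes of 10 spots, and 0 of its 320 spots over the 16 arrays was saturated.

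Some facts of the whole series bear on these values. The arrays differed in total signal, between 170979 and 395200 intensity units, with the highest mean in KO no UV, and 184 to 266 miRNAs were detected per array. All 8 UV arrays lay on one slide and all 8 no UV arrays on another, so that irradiation and slide cannot be told apart in any UV comparison, while both genotypes shared a slide. Row 1 of the UV slide held WT and row 2 KO. The SD of the negative control spots was 9.10 to 10.3 intensity units on the UV slide and 3.66 to 4.25 on the other. The number of arrays limits the precision, and whole skin cannot tell fewer red cells from less of a miRNA per cell.

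MiR-451, the most specific red cell marker of the members, was measured well above background in every sample. Its signal as scanned was 664, 1188, 716 and 1038 intensity units in WT no UV (replicates 1 to 4), and 1321, 1727, 1765 and 2023 in KO no UV. After UVB it was 903, 2436, 1293 and 1899 in WT, and 521, 1910, 1271 and 1292 in KO. As scanned, the 2 unirradiated genotypes did not overlap, with KO higher. How many other miRNAs likewise did not overlap was not counted. With no normalization limma called 110 of the 228 miRNAs tested higher in KO there, miR-451 not among them (adjusted p = 0.0519). Total signal differed in the same direction, by 0.57 on the log2 scale, and once the arrays were brought to a common distribution the 2 genotypes overlapped.

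After quantile normalization, which gives every array the same set of values, miR-451 averaged 10.08 ± 0.25 log2 units (SD, n = 4) in WT no UV and 10.44 ± 0.20 in KO no UV. With UVB the WT mean was 10.42 ± 0.58 and the KO mean 10.39 ± 0.67. All 4 groups overlapped with one another. Knockout skin exceeded wild-type skin by 0.35 without irradiation (95% interval -0.34 to 1.05, limma adjusted p = 0.661), where 36 of the 228 miRNAs tested had an unadjusted p under 0.05 and 0 (0%) were called. After irradiation KO minus WT was -0.02 (-0.72 to 0.67, adjusted p = 1), where 2.19% of all miRNAs were called.

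UVB likewise left no called difference in miR-451. It was 0.33 higher after irradiation in WT (-0.36 to 1.03, limma adjusted p = 0.535) and stood at -0.04 in KO (-0.74 to 0.66, adjusted p = 0.983). Across all miRNAs 16.2% and 29.8% were called in those 2 comparisons. The UV effects of the genotypes differed by 0.38, WT less KO (-0.61 to 1.36, adjusted p = 0.815), against 2.19% called. Single arrays moved both values without a call. The UV difference in WT was 0.59 without WT UV replicate 1 and 0.13 without WT UV replicate 2, and the difference between the UV effects was 0.64 without WT UV replicate 1 and 0.06 without KO UV replicate 1. The interval for WT, as an example, allows 0.777 to 2.04 times the unirradiated level, so the design cannot show that miR-451 was equal between groups.

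**Figure D1:**
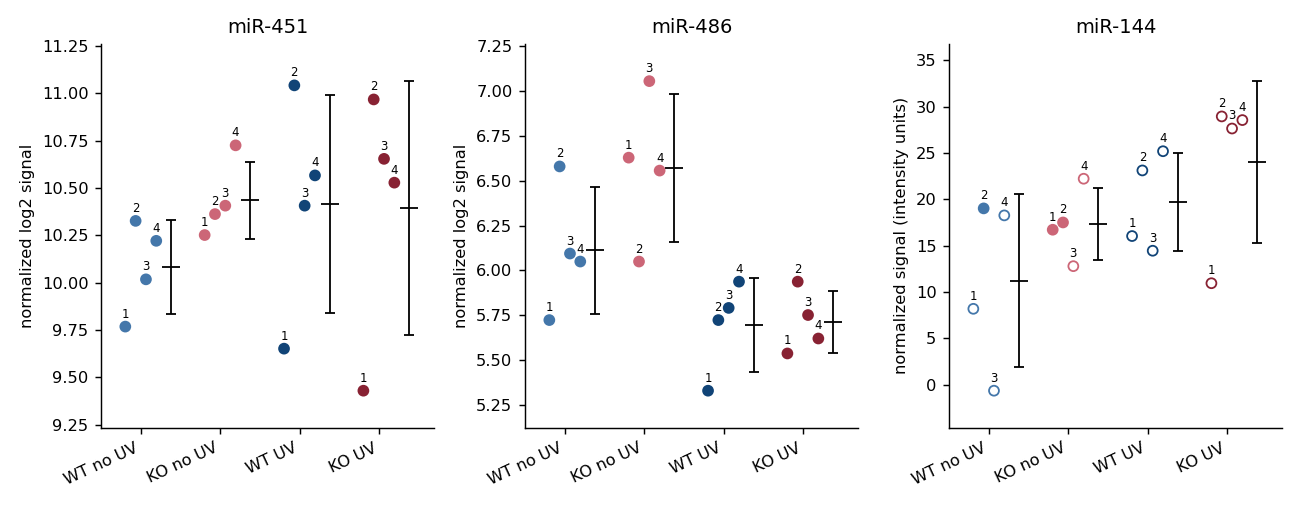
Values of miR-451 and miR-486 (normalized log2 signal) and of miR-144 (normalized signal, intensity units) on each array, by group. Points are arrays numbered by replicate, filled where the miRNA was detected, and the bar gives the mean and SD of 4 arrays. MiR-451 is lowest in replicate 1 of both UV groups, and miR-486 in KO UV lies below all of KO no UV.

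The arrays of one group differed widely in miR-451 on the UV slide. Over all 4 groups its within-group SD was 0.47 log2 units, while the median over the 167 miRNAs detected on all arrays was 0.20, and 10 of the 167 had a larger SD. Within the UV slide it was 0.63 against a median of 0.16, and 0 of the 167 had a larger one. Within the no UV slide it was 0.23 against 0.21, and 76 of the 167 had a larger one. Whether the spread differed between slides was not tested. Over all arrays it spanned 9.43 to 11.04, a 3.06-fold range. In both UV groups replicate 1 was the lowest and replicate 2 the highest, at 9.65 and 11.04 in WT and at 9.43 and 10.97 in KO. On that slide the replicate number is also the slide column, so that animal and array position cannot be told apart. Both probes gave the same picture, with r = 0.99 between them over the 16 arrays after group means were removed.

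With scaling to the 75th percentile in place of quantiles, the within-group SD of miR-451 was 0.52 against a median of 0.22, and 8 of 167 miRNAs had a larger one. The spread of miR-486 on the quantile scale was 0.31, exceeded by 36 of the 167, and it was 0.38 within the no UV slide and 0.22 within the UV slide.

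MiR-144, which shares a transcript with miR-451, was near the limit of the array in skin. Its signal as scanned was 7.54, 16.1, -1.80 and 17.0 intensity units in WT no UV, and 20.04, 26.4, 15.3 and 19.2 in KO no UV. The irradiated WT arrays gave 19.0, 27.5, 13.4 and 30.1, and the irradiated KO arrays 7.55, 25.8, 22.7 and 25.04. Detection was called on WT no UV replicate 2 and on KO no UV replicates 1 and 2. The highest signal, 30.1, came from a UV array, yet 0 of the 8 UV arrays had a detection.

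The error that the scanner software attaches to each signal differed between slides in the same way as the negative controls. For miR-144 it was 6.80 to 8.75 intensity units on the UV slide. On the 3 arrays with a detection it was 3.83 to 4.66, and the signal was 4.12 to 5.67 times its error. On the 8 UV arrays that ratio was 1.11 to 3.74, and on the other 5 no UV arrays it reached 3.78. The detection counts were 3 without and 0 with UVB, while the mean signal as scanned was 9.70 without and 22.5 with UVB in WT (exact permutation p = 0.114) and 20.24 and 20.28 in KO (exact p = 1).

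**Figure D2:**
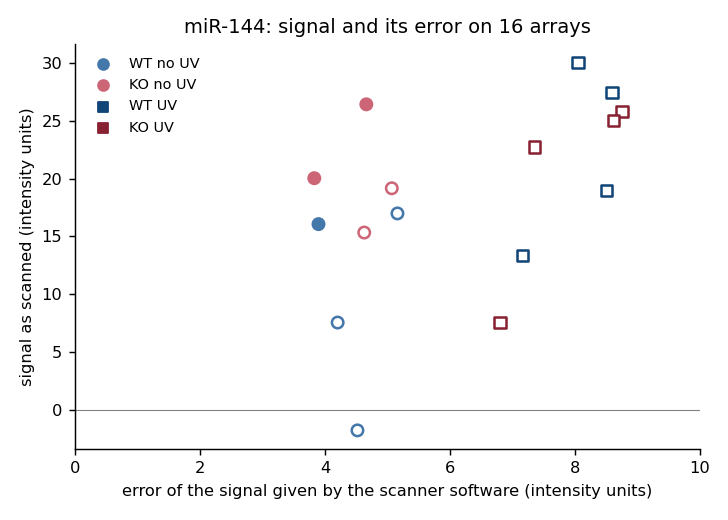
Signal of miR-144 as scanned against the error that the scanner software gives for it, both in intensity units, on 16 arrays. Filled symbols are arrays on which miR-144 was detected, circles no UV and squares UV. The UV arrays sit at errors of 6.80 to 8.75 and none is detected, although their signals reach 30.1.

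MiR-144 did not meet the detection rule of the fit, so its normalized signals were compared with exact two-sided permutation tests. Without UVB the WT mean was 11.2 ± 9.3 intensity units (SD, n = 4) and the KO mean 17.3 ± 3.9. With UVB they were 19.7 ± 5.3 and 24.03 ± 8.7. All groups overlapped. KO exceeded WT by 6.10 without irradiation (exact p = 0.314) and by 4.32 after it (exact p = 0.400). UV arrays exceeded no UV arrays by 8.49 in WT (exact p = 0.171) and by 6.71 in KO (exact p = 0.229). With 1 array left out these 4 differences ranged from 2.18 (without WT no UV replicate 3) to 8.76 (without WT no UV replicate 2), from 2.61 (without WT UV replicate 3) to 8.76 (without KO UV replicate 1), from 4.54 to 11.2 and from 4.90 to 11.2. The difference between these UV effects was 1.78 (exact p = 0.822), and after adjustment over the 5 tests p was 0.5 for the first 4 and 0.822 for the last. With 4 against 4 arrays the smallest p possible is 0.0286, and a signal this close to background gives no fold change.

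MiR-486 was the single member with a called difference, a fall with UVB in knockout skin. Its signal as scanned was 44.7, 103, 44.9 and 59.7 intensity units in WT no UV, and 107, 101, 178 and 109 in KO no UV. In WT UV it was 43.7, 56.9, 48.6 and 71.2, and in KO UV it was 35.8, 55.2, 43.6 and 43.0. The 4 arrays of KO no UV were all above the 4 of KO UV. Total signal of these 2 groups did not overlap either, at 254694 to 395200 and 200905 to 231139 intensity units. With no normalization limma called 124 of the 228 miRNAs tested lower in that comparison. As spots, 18 to 20 of 20 were well above background on each no UV array and 1 to 17 on each UV array.

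Normalized, miR-486 averaged 6.11 ± 0.35 log2 units (SD, n = 4) in WT and 6.57 ± 0.41 in KO without UVB. With UVB the averages were 5.70 ± 0.26 and 5.71 ± 0.17. In knockout skin the difference was -0.86 (95% interval -1.32 to -0.40, limma adjusted p = 0.0135), 1.81-fold lower after UVB, in a comparison in which 29.8% of all 228 miRNAs were called. The groups did not overlap there, but how many of the 228 miRNAs likewise did not overlap was not counted. An exact permutation test of the same values gave p = 0.0286, the smallest possible, and 0.143 after adjustment over 5 comparisons. This exact test restates the lack of overlap, since groups of this size that do not overlap always give the smallest value. In wild-type skin miR-486 was lower by a smaller amount, -0.42 (-0.88 to 0.05, adjusted p = 0.205), and the groups overlapped. The 2 UV effects differed by 0.44 (-0.21 to 1.10, adjusted p = 0.606), so the fall is not shown to depend on genotype.

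Between genotypes miR-486 was 0.46 higher in KO without irradiation (-0.00 to 0.92, limma adjusted p = 0.319) and differed by 0.02 after it (-0.45 to 0.48, adjusted p = 1). The call in knockout skin held without each array in turn (-1.02 to -0.69). It was lost when signals were rebuilt from the spots, at -0.97 (adjusted p = 0.105) from processed spot signals and at -0.23 (adjusted p = 0.175) from normexp, which adds 50 intensity units to signals of this size.

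**Figure D3:**
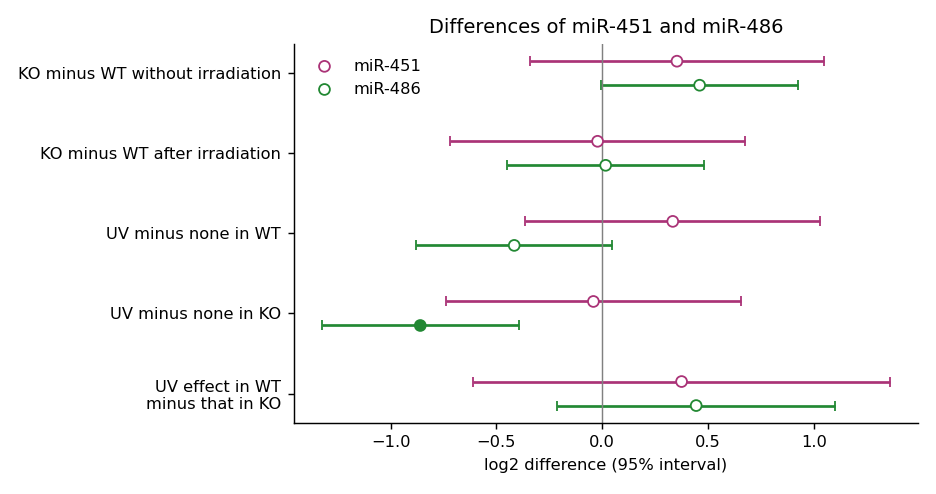
Log2 differences of miR-451 and miR-486 in the 5 comparisons, with 95% intervals from limma. A filled point marks an adjusted p under 0.05, which only miR-486 in the comparison of UV with no UV in KO reached, at -0.86.

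The 2 probes of miR-486 moved alike, with differences of -0.98 and -1.02 for UV minus none in KO after scaling to the 75th percentile, and r = 0.95 between them over the arrays. Those of miR-144 had r = 0.84, which is a description at signals this low. Of the 10 limma differences of miR-451 and miR-486, 1 was called, and 0 of the 5 exact tests of miR-144 fell under 0.05. Over all 228 miRNAs limma called 0% to 29.8% in those comparisons, and 29.8% in the one that held the call.

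Whether the members moved together between animals of one group was asked with deviations from the group means, with exact two-sided permutation within groups and adjustment over 13 relations. MiR-451 and miR-486 had r = 0.49 (exact permutation p = 0.0203, adjusted p = 0.132; rho = 0.53, p = 0.0469). The value was 0.76 within the UV slide and 0.46 within the other. Without WT UV replicate 1 and KO UV replicate 1, the arrays farthest from the median of miR-451, r was 0.37.

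MiR-451 and its cluster partner miR-144, a relation added after the data were seen and computed in signal units, had r = 0.69 (exact permutation p = 0.00621, adjusted p = 0.0808; rho = 0.73, p = 0.0054). It was 0.80 on the UV slide, 0.63 on the other and 0.58 without WT UV replicate 2 and KO UV replicate 1. After 75th percentile scaling it was 0.79 on the UV slide and 0.25 on the other, and as scanned 0.81 and 0.44. Without the 2 farthest arrays of each scale it was 0.34 and 0.72. MiR-486 and miR-144 had r = 0.17 (exact permutation p = 0.531). None of the 13 relations passed the adjustment on the quantile scale, the lowest adjusted p being 0.0808.

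**Figure D4:**
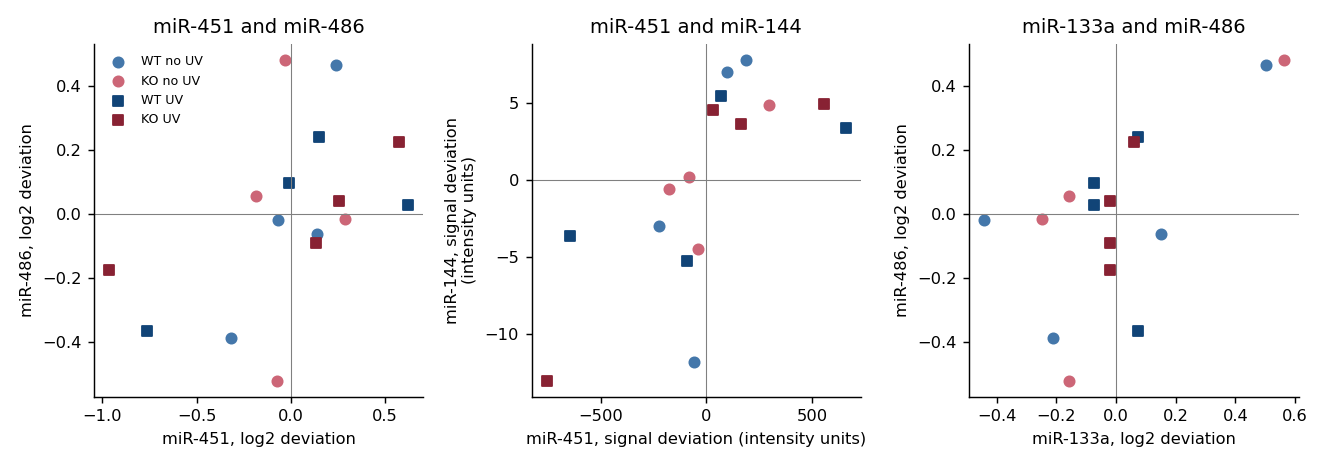
Deviations from the group mean on 16 arrays for miR-451 against miR-486 (log2), miR-451 against miR-144 (intensity units) and miR-133a against miR-486 (log2), coloured by group, with circles for no UV and squares for UV. The r values are 0.49, 0.69 and 0.62, and KO UV replicate 1 is the lowest point of the middle panel on both axes.

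MiR-451 showed weak relations with markers of the other tissues of skin. Its r was 0.36 with miR-142-3p of leukocytes (exact permutation p = 0.187), -0.20 with miR-126-3p of endothelium (exact p = 0.394), 0.09 with miR-133a of skeletal muscle (exact p = 0.572), 0.09 with miR-203 of keratinocytes (exact p = 0.81) and 0.21 with total signal (exact p = 0.363). The sign with miR-126-3p turned to 0.19 under 75th percentile scaling. For miR-486 the strongest of these was miR-133a at 0.62 (exact permutation p = 0.0813, adjusted p = 0.352). It was 0.73 within the no UV slide and -0.01 within the UV slide, and 0.48 without KO no UV replicates 2 and 3. Quantile normalization left miR-133a few distinct values on the UV slide, with deviations of -0.07 or 0.07 in WT and -0.02 or 0.06 in KO. The r of -0.01 therefore cannot show that a relation was absent there. Within the UV slide this r depended on the scaling. There it was 0.53 after 75th percentile scaling, 0.77 with no normalization and 0.09 in the authors' series table. With no normalization miR-486 also had r = 0.75 with total signal on that slide, so shared brightness can enter the 0.77. With miR-142-3p, miR-126-3p, miR-203 and total signal, miR-486 had r from -0.34 to 0.17.

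By likeness to each member over the 16 arrays, of 165 miRNAs outside the members, the nearest to miR-451 were miR-30b (r = 0.60), miR-17 (0.57), miR-139-5p (0.52), miR-685 (0.48) and miR-101b (0.47). Nearest to miR-486 were miR-378 (0.65), miR-133a (0.62), miR-133b (0.62), miR-30c (0.59) and miR-30a (0.56). Both miR-133 miRNAs belong to skeletal muscle. The median r over all 165 was 0.01 for miR-451, and these values are given with no test.

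Other miRNAs are abundant in red cells but are made in many other cells too. Of 9 listed, 8 were tested, miR-363 being undetected. In UV minus none in KO, 6 of 8 rose and 0 fell, with a median difference of 0.30 against 0 over all miRNAs tested and 29.8% called. With arrays scaled to their 75th percentile over the 167 miRNAs found throughout, 2 rose, and with no normalization 0 rose and 1 fell (median -0.29, against -0.48 over all miRNAs). MiR-15b rose by 0.50 (95% interval 0.24 to 0.75, limma adjusted p = 0.0107), miR-92a by 0.42 (0.24 to 0.61, 0.00498) and miR-25 by 0.35 (0.10 to 0.59, 0.0386). In WT 1 of 8 rose, miR-15a by 0.30 (0.12 to 0.49, limma adjusted p = 0.027), and the median was 0.19, where 16.2% of all miRNAs were called. Over 7 other scalings and signals 0 to 4 of the 8 rose in WT and 0 or 1 fell, 4 rising and 1 falling with the invariant set. Limma called 0 of the 8 between genotypes or in the interaction, where 1 of the 24 p-values, that of miR-93 after irradiation, was under 0.05 before adjustment. With no normalization 3 were called higher in KO without irradiation and 5 in the interaction. Of all 228 miRNAs that setting called 110 and 138 higher.

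Skeletal muscle miRNAs did fall beside miR-486. All 4 listed fell in UV minus none in KO, with a median of -1.04 (0 over all miRNAs, of which 29.8% were called), and 3 or 4 fell under each of 7 other scalings and signals. MiR-133a, a regulator of muscle cell growth, fell by 1.25 (limma adjusted p = 0.00125), from 12.69 ± 0.38 to 11.44 ± 0.04 log2 units (SD, n = 4). MiR-133b fell by 1.08 (0.00125). MiR-1, the most typical miRNA of striated muscle, fell by 1.001 (limma adjusted p = 0.00477). Quantile normalization gives equal values to equal ranks, so the SD of 0.04 for miR-133a need not measure the spread between animals. MiR-1 had an SD of 0 in KO no UV, and the limma p-values rest in part on such SDs. The summed signal of the 4 as scanned was 41373 to 73749 intensity units in KO no UV and 15384 to 21928 in KO UV, and in WT it was 13412 to 40455 without and 20445 to 27598 with UVB. All 4 were detected on all 16 arrays. Their part in the fall of miR-486 was not tested.

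Limma called 0 of the 4 muscle miRNAs in the other comparisons after quantile normalization. Called higher in KO without irradiation were 3 of the 4 with the authors' series table and 4 with no normalization, and in the interaction 1 from processed spot signals and 4 with no normalization. Of all 228 miRNAs the same settings called 5 and 110 higher without irradiation, and 4 and 138 in the interaction. The medians were -0.23 for UV in WT, 0.73 and -0.22 for KO minus WT without and after irradiation, and 0.91 for the interaction, where miR-133b stood at 0.89 (limma adjusted p = 0.0862). Before adjustment 0, 4, 0 and 3 of the 4 had a p under 0.05. The values of miR-486 in the same order were -0.42, 0.46, 0.02 and 0.44.

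**Figure D5:**
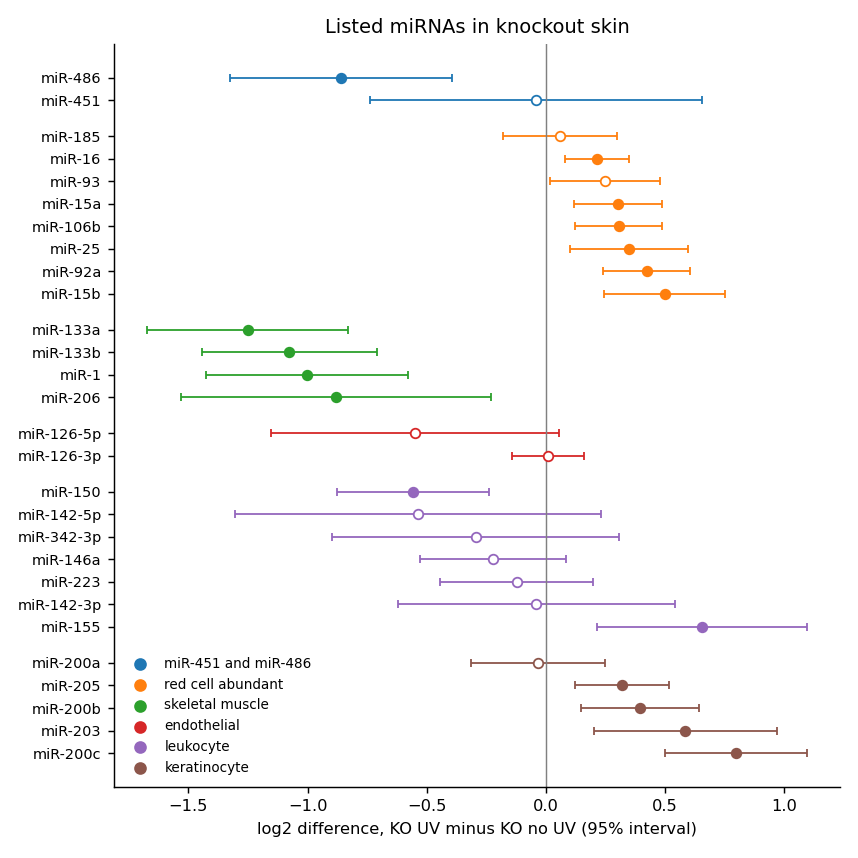
Log2 differences of the tested miRNAs of each list in KO UV minus KO no UV, with 95% intervals from limma, filled where the adjusted p was under 0.05. MiR-486 lies at -0.86 and the 4 muscle miRNAs between -1.25 and -0.88, miR-451 at -0.04, and the 8 miRNAs abundant in red cells between 0.06 and 0.50.

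Other cells that a skin sample holds were checked by their own lists, against 16.2% of all miRNAs called for UV in WT and 29.8% in KO. Of the 2 endothelial miRNAs, both strands of one hairpin, 1 rose with UVB in WT and 0 in KO. MiR-126-3p rose in WT by 0.46 (limma adjusted p = 0.000599), a call lost with that 75th percentile scaling, and stood at 0.01 in KO. Quantile normalization left it an SD of 0 in KO UV. Its UV effects differed by 0.45 (limma adjusted p = 0.0345), a call that 6 of 7 other scalings and signals did not give (0.19 to 0.44, adjusted p from 0.0813 to 0.659). MiR-126-5p stood at -0.24 in WT (limma adjusted p = 0.598) and at -0.55 in KO (0.161). Of 7 leukocyte miRNAs 3 fell with UVB in WT, led by miR-342-3p at -1.39 (limma adjusted p = 0.00383), and in KO 1 fell and 1 rose, miR-150 at -0.56 and miR-155 at 0.65. Over the 7 other scalings and signals 2 or 3 fell in WT, and in KO 1 to 4 fell and 0 or 1 rose. Of 5 keratinocyte miRNAs 2 rose in WT and 4 in KO, led by miR-200c at 0.83 and 0.80. Over the 7 others 2 to 4 rose in WT and 0 to 4 in KO, with 4 in each genotype when the invariant set was used, so these counts do not separate the genotypes. MiR-451 was not called in any of the 5 comparisons, at unadjusted p from 0.293 to 0.947.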

How the data were processed

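The data were single-colour Agilent miRNA arrays of 16 dorsal skin samples, 100 ng of Cy3-labelled total RNA on each. The deposited scanner files (Agilent Feature Extraction 9.5.3.1, mm9) hold intensity values that the scanner software had background-subtracted and summed per miRNA over probes, with an error and a detection call, and with no normalization between arrays. The deposited series table holds log2 values normalized by the authors with an invariant set and quantiles, and was used as an alternative. Groups and replicate numbers came from the sample titles.

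Total signals were quantile normalized, floored at 19.4 intensity units (the 5th percentile of the detected signals of an array, as the median of 16 arrays) and log2 transformed, so changes of dim miRNAs are understated. A miRNA was tested if some group detected it on all 4 of its arrays, and the 228 tested were fitted with 1 group-means model of 16 arrays (limma 3.58.1, R 4.3.3), tested on simulated data. A call needs an adjusted p (Benjamini-Hochberg, over all 228) under 0.05. Members that failed detection, and correlations, had exact permutation tests (Python 3.11.15). The members and the lists (red cell abundant, skeletal muscle, endothelial, leukocyte, keratinocyte) were chosen with earlier results of these data known. From each list, up to 3 called members with the largest change were named in a contrast, otherwise the smallest p, and the 5 miRNAs most like a member by r. Of 18 relations planned, the 7 with miR-144 were not computed because it was not detected on all arrays, and 2 of them were added later in signal units. No replicate block was used, since nothing in the sample titles ties same-numbered arrays to a shared litter or day. Alternatives changed the normalization, background, filter, floor, covariates, threshold and arrays.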

Additional observations from a re-analysis of the deposited data

Results flagged for a closer look

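One value lay far from its group. In KO UV the normalized signal of miR-144 was 11.0 intensity units in replicate 1, while the other 3 arrays lay close together at 27.7 to 29.0, and the gap made up 0.928 of the range of the 4. MiR-451 was also lowest in that array, at 9.43 log2 units. Every combination of member and group was examined, and chance alone marks about 5% of them.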

How the results depend on the processing

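Of 443 recomputed member differences, 415 kept direction and side of the threshold. The main tests called only the fall of miR-486 in KO, so most of the 415 were again uncalled. Some alternatives, such as the replicate block, could not change the size of a difference. With no normalization (KO no UV arrays were brightest) 3 more passed: miR-486 KO minus WT without irradiation (1.02), and the interactions of miR-451 (1.38) and miR-486 (1.32). Of all 228 miRNAs that setting called 111 and 138 in those comparisons. MiR-144 passed in UV minus none in KO with no detection filter (0.36 log2). The fall of miR-486 in KO was lost with normexp (-0.23), processed spot signals (-0.97) and the methods' threshold (-0.86). It was also not called by the exact test (-0.86), whose smallest possible p, 0.0286, became 0.143 after adjustment over 5 tests. Small differences changed sign: miR-486 KO minus WT after irradiation (-0.024 by the 75th percentile of all miRNAs, -0.027 by the invariant set, -0.30 with no normalization, -0.15 with normexp, -0.55 from processed spot signals, -0.18 with slide row as a covariate), miR-486 UV minus none in WT (0.050 with normexp and 0.046 from processed spot signals), and miR-144 after irradiation (-2.18 intensity units with no normalization) and in the interaction (-0.20 log2 with no detection filter). The cause was not tested.

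Leaving out 1 array ended no call but turned the sign of miR-451 KO minus WT after irradiation (-0.28 to 0.30; 0.30 without KO UV replicate 1, 0.18 and 0.03 without WT UV replicates 2 and 4), of miR-451 UV minus none in KO (-0.23 to 0.28; 0.28 without KO UV replicate 1, 0.05 without KO no UV replicate 4), of miR-486 KO minus WT after irradiation (-0.11 to 0.093; -0.11 without WT UV replicate 1, -0.055 without KO UV replicate 2) and of the miR-144 interaction (-2.53 to 4.43; below 0 without WT UV replicate 4, KO UV 1 or WT no UV 3).

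Deviations of same-numbered arrays correlated at -0.38 to 0.46 over 167 miRNAs, all above 0.1 in 1 of 6 pairs of groups. With the replicate number as a replicate block, miR-486 in KO stayed called (-0.86, adjusted p = 0.0223) and no other member call changed, nor with slide column (chosen after seeing the data). Slide row and the floor of 1 were not run for miR-144. With no normalization, miR-451 with miR-486 (r = 0.64) and miR-486 with miR-133a (0.81) passed, both at adjusted p = 0.0221. Array brightness remains there, with total signal at r = 0.42 with miR-451 and 0.59 with miR-486. Both 75th percentile scaling and no normalization turned the signs of miR-451 with miR-126-3p (0.19 and 0.40) and miR-486 with miR-203 (0.26 and 0.50). No normalization turned miR-486 with miR-142-3p (0.21).

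Numbers of miRNAs called moved from 0 to up to 111 (KO minus WT without irradiation), from 5 to 1 to 5 (after it), from 37 to 27 to 58 (UV in WT), from 68 to 26 to 130 (UV in KO) and from 5 to 0 to 138 (interaction), where 111, 130 and 138 came with no normalization, which moved the median difference of all miRNAs by -0.48 to 0.77. With 1 array left out they were 0 to 16, 5 to 7, 30 to 43, 35 to 70 and 1 to 12.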

Other observations

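Among the 331 miRNAs detected on at most 3 arrays, the deviations of miR-144 had the second highest r with those of miR-451, 0.69 on the quantile scale and 0.68 as scanned, and the third highest, 0.59, after 75th percentile scaling. The highest on all 3 scales was miR-431*, at 0.92 on the quantile scale, whose signal was not detected on any of the 16 arrays. The median r over the 331 was -0.03 on the quantile scale.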
